A study of Mus musculus with 19 samples.

Results

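The livers of mouse embryos that carried an active DNAJB1-PKA fusion kinase were compared with control embryonic livers, gene by gene and by groups of genes with a shared function. All 9 embryonic liver libraries of the series were used, of 19 samples in all: 5 controls, numbered 1 to 5, and 4 fusion embryos, numbered 6 to 9, taken at embryonic day 18.5. In the fusion embryos, labelled DNAJ1B-PKA_Overexpression, a Rosa26 LSL-DNAJB1-PKA-GFP allele was recombined by Alb-Cre, so that the fusion and a GFP reporter were made in cells in which the albumin promoter had been active. The labels of the controls do not say which of these alleles they carried, nor which embryos were littermates. Poly-A enriched RNA of the whole liver was sequenced, and p-values measure the spread between these libraries.

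DNAJB1-PRKACA is the gene fusion of fibrolamellar carcinoma, a liver cancer of young people. It joins the start of the chaperone DNAJB1 to the catalytic part of protein kinase A (PKA), which cyclic AMP (cAMP) sets free from regulatory subunits. In liver, glucagon acts through cAMP and PKA: the kinase phosphorylates CREB, which binds cAMP response elements and raises genes of glucose production and amino acid breakdown. The fetal liver is also a site of blood formation, so that blood cells, endothelium, stellate cells and bile duct cells contribute RNA to the whole organ, and the albumin promoter is a promoter of hepatocytes and their precursors.

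Tat, Ppargc1a and Pck1 had 3 of the 4 smallest adjusted p-values of the CREB list in the comparison below. Their promoter windows from RefSeq (build GRCm38.p6, 250 bases before to 50 after the start, in the direction of the gene) are shown because these genes are known targets of glucagon and cAMP. Capitals mark the core of the cAMP response element, TGACG or CGTCA on the other strand. The windows were chr5:51567676-51567975 (minus strand) for Ppargc1a, chr2:173152823-173153122 (plus strand) for Pck1 and chr8:109990186-109990485 (plus strand) for Tat.
Ppargc1a: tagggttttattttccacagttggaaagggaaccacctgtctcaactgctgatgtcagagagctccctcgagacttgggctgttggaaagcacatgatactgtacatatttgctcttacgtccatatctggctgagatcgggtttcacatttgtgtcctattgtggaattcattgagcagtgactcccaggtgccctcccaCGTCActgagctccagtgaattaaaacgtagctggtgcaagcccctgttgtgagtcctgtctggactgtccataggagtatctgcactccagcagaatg
Pck1: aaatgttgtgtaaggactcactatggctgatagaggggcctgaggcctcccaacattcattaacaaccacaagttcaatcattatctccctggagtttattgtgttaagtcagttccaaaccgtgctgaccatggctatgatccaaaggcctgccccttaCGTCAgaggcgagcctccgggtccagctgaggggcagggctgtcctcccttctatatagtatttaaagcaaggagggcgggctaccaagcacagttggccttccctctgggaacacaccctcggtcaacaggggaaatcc
Tat: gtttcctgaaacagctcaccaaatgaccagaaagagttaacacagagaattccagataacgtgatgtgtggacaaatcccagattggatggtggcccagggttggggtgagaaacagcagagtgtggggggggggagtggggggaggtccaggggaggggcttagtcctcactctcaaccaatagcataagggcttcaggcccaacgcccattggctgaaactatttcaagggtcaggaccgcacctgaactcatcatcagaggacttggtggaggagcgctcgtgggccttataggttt
The core began 49 bases before the start of Ppargc1a and 90 bases before that of Pck1, and no core lay in the Tat window. None of the 3 windows held the full element TGACGTCA. The windows of Gadd45g and G6pc, the next called-higher genes of the list with a window, are not printed here. They held neither the core nor the full element. Among the 11 called-higher genes of the CREB list with a window, 6 held the core and 1, the phosphatase gene Dusp1, the full element. For comparison, the core lay in 40.4% of all genes called higher that had a window and in 34.3% of all such tested genes. The difference was not tested.

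Library totals ran from 7660736 counts in control 2 to 45591301 in fusion 6. The share of counts in cytosolic ribosomal protein genes fell into 2 ranges: 9.64% to 10.1% for controls 1 and 2 with fusions 8 and 9, and 6.18% to 7.84% for the remaining 5. That share entered the model as a covariate, and 5390 genes (40.5% of those tested) had a slope on it past the threshold. By Xist, controls 1 and 2 and fusions 6, 7 and 8 were female. Among the 5 libraries with the lower share the 3 controls were therefore male and both fusion embryos female, where genotype and sex cannot be told apart. These sets of libraries, split at the gap in the ribosomal share, each held both genotypes and shared no library, and medians within them are given beside the results as higher-share and lower-share values.

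Of 13316 genes tested, 4539 (34.1%) had an edgeR adjusted p under 0.05. Higher in fusion livers were 2181 genes (16.4%) and lower were 2358 (17.7%), and over all tested genes the median was -0.02 on the log2 scale. Without the covariate 1704 genes (12.8%) passed, all of them among the 4539. The 2835 genes that passed only with the covariate had a median absolute log2 fold change of 0.42, against 0.75 for the 1704, so that the gain lay in smaller changes. Most calls were small: 2729 genes changed by less than 1.5-fold, 1174 by 1.5-fold to 2-fold, 497 by 2-fold to 4-fold and 139 by more. At 2-fold or more there were 220 rises (1.65% of genes tested) and 416 falls (3.12%), together 636 (4.78%), yet 11 genes rose and 1 gene fell by at least 16-fold. The CPM (counts per a fixed library total, after TMM scaling) of the groups did not overlap for 2245 genes (16.9%), 1233 higher (9.26%) and 1012 lower (7.6%). In bulk tissue, fewer cells of a type and less RNA per cell cannot be told apart, and this holds for every fall below.

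**Figure D1:**
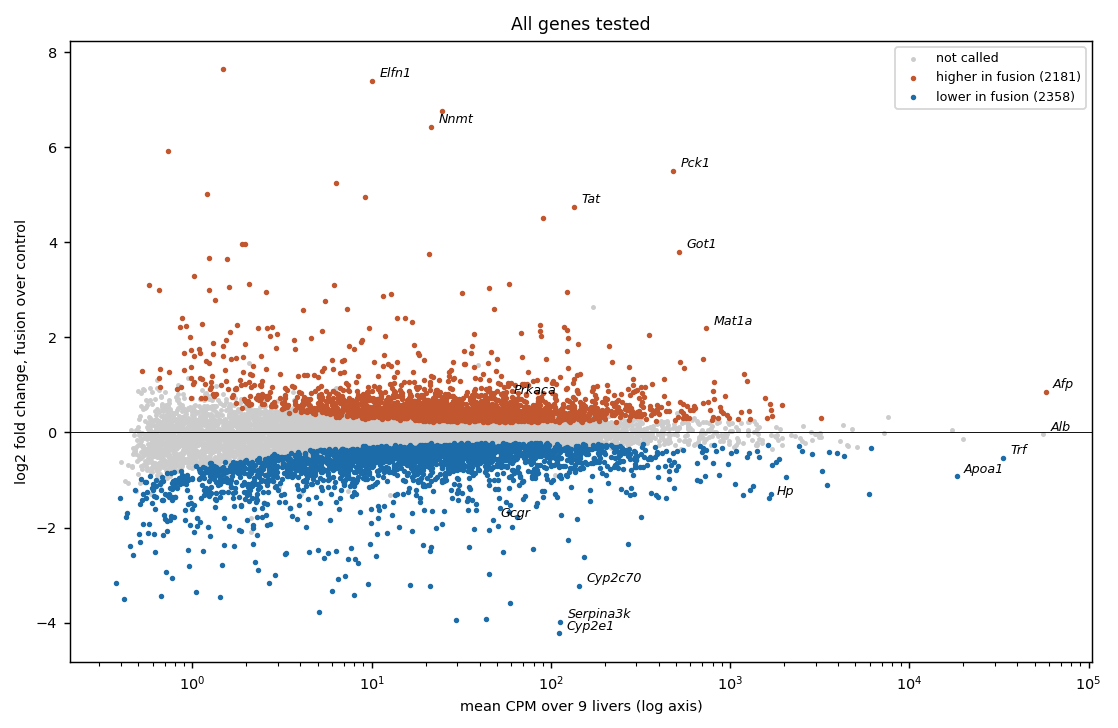
Log2 fold change, fusion over control, against the mean CPM over 9 livers (log axis) for 13316 genes. Orange points are the 2181 genes called higher, blue points the 2358 called lower and grey points the rest; Afp is the most abundant gene called higher, and Trf and Apoa1 the most abundant called lower.

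By amount of RNA, the rises were led by Afp, the albumin of the fetus. It was at 38385, 49759, 39512, 43342 and 39308 CPM in controls 1 to 5 and at 72266, 71235, 94283 and 70628 CPM in fusions 6 to 9. Every fusion liver lay above every control, with a log2 fold change of 0.85 with an SE of 0.11 (edgeR adjusted p = 0.000137). The gain in mean Afp was 36.5% of the summed gain of all genes called higher. Alb, the albumin of later life, was at 38918 to 70199 CPM in controls and 36649 to 78984 CPM in fusion livers, with a log2 fold change of -0.04 with an SE of 0.09 (edgeR adjusted p = 0.766). Other large gains in CPM were in Pck1, Mat1a, Hpx, Got1, Hspa8, Igfbp1, Hsp90ab1 and Phyh, enzymes, chaperones and secreted proteins described below. The largest losses were in Trf (transferrin), Apoa1, Serpina1e, Kng1, Fga, Hp, A2m, Serpinf2, Mt1 and Apoa2, of which all but the metal-binding protein gene Mt1 encode secreted plasma proteins. Apoa1 was at 26352, 23632, 24316, 18811 and 22042 CPM in controls and at 8081, 12292, 11336 and 18846 CPM in fusion livers. The groups overlapped only through fusion 9 and control 4, and the log2 fold change was -0.92 with an SE of 0.15 (edgeR adjusted p = 0.000855).

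Among the genes of the kinase itself, Prkaca (chromosome 8, 83972993 to 83996443, GENCODE M21) was at 42.5, 49.98, 38.1, 36.4 and 45.2 CPM in controls 1 to 5. In fusions 6 to 9 it was at 113.9, 73.4, 54.0 and 52.5 CPM, each above every control and spread more than 2-fold among themselves. Its log2 fold change was 0.73 with an SE of 0.18 (edgeR adjusted p = 0.00715), with 0.19 in the higher-share and 1.23 in the lower-share libraries. Dnajb1, on the same chromosome at 83608193 to 83612653, was at 41.3 to 52.8 CPM in controls and 52.2 to 74.3 CPM in fusion livers (log2 fold change 0.42 ± 0.09, SE; edgeR adjusted p = 0.00434), and control 5 lay just above fusion 9. Reads of the fusion and of the mouse genes cannot be told apart in these rows, and GFP was not analysed here. Among 18 subunits, inhibitors and anchors of PKA, 4 rose and 0 fell. These were 22.2% of the list, against 34.1% of all genes called in either direction and 16.4% called higher. Without the covariate 2 rose, and in the higher-share and lower-share libraries 1 and 6 rose. The rises included Prkar1a, the regulatory subunit that holds the catalytic one inactive. It was at 204, 237, 193, 173 and 184 CPM in controls and at 309, 312, 329 and 292 CPM in fusion livers, with no overlap (log2 fold change 0.64 ± 0.09, SE; edgeR adjusted p = 0.000328). Prkacb, another catalytic subunit gene, rose by 0.45 with overlapping groups.

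Of 30 CREB factors and classic CREB targets, 13 rose and 3 fell, with a median log2 fold change of 0.25 (0.41 higher-share, 0.31 lower-share). Ppargc1a, the coactivator of glucose production and mitochondrial genes, was at 7.68, 9.11, 6.64, 8.58 and 8.71 CPM in controls and at 77.7, 55.2, 72.6 and 42.6 CPM in fusion livers. The 5 controls lay within a narrow band and the lowest fusion liver was several-fold above it (log2 fold change 2.93 ± 0.17, SE; edgeR adjusted p = 3.27e-07). Pck1 and Tat are given below with their pathways. Crtc1, a coactivator of CREB, fell by 0.81 on the log2 scale. The clock genes Per2 and Per1, which CREB also induces, fell by 0.52 and 0.28, and their groups overlapped. Nr4a1, an early CREB target, was at 2.49 to 4.37 CPM in controls and 2.83 to 6.36 CPM in fusion livers (log2 fold change 0.25 ± 0.21, SE; edgeR adjusted p = 0.38). Among the immediate early genes 8 of 22 rose and 4 fell. Without the covariate 3 rose and 0 fell. In the higher-share libraries 5 rose and 0 fell, and in the lower-share libraries 3 rose and 0 fell. Junb, a subunit of the AP-1 factor, rose from 30.4 ± 9.74 CPM (SD, n = 5) to 73.5 ± 18.9 CPM (SD, n = 4), and Jun and Atf3 rose by 0.84 and 0.71, while Klf2, Ier2 and Btg1 fell by 0.44, 0.36 and 0.33.

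Of 27 genes of cAMP synthesis and breakdown, 6 rose and 5 fell. Called phosphodiesterases, which break down cyclic nucleotides, went both ways. Pde10a, Pde4b, Pde8a, Pde4d and Pde3b rose by 0.99, 0.93, 0.89, 0.84 and 0.48, and Pde1c, Pde1b and Pde4c fell by 0.91, 0.89 and 0.47. The groups did not overlap for Pde4d, Pde3b and Pde1c and overlapped for the other 5. The sixth rise of the list was Rapgef4, the cAMP sensor EPAC2, by 0.85 with overlapping groups; Pde4d, Pde3b and Rapgef4 complete the count and were named after their values were seen. The direction of Pde8a differed between the sets of libraries, with a log2 fold change of -0.25 in the higher-share set. Gcgr, the glucagon receptor, was at 75.7, 70.8, 88.02, 59.0 and 55.9 CPM in controls and at 15.5, 17.4, 19.1 and 28.0 CPM in fusion livers. All fusion livers lay below all controls, and the log2 fold change was -1.85 with an SE of 0.15 (edgeR adjusted p = 3.45e-06). Among 33 genes of insulin and glucagon signalling 7 rose and 8 fell. The insulin receptor substrates Irs1 and Irs2 rose by 0.67 and 0.95, but Irs2 overlapped between the groups and had a log2 fold change of -0.14 in the higher-share libraries. Grb10, an imprinted adaptor that restrains insulin signalling, was at 1848, 1866, 1353, 1282 and 1512 CPM in controls and at 361, 516, 695 and 1166 CPM in fusion livers (log2 fold change -1.31 ± 0.17, SE; edgeR adjusted p = 0.000142). Gcgr and Grb10 were both lowest in fusion 6 and highest, among fusion livers, in fusion 9.

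Other receptors and regulators held called genes in both directions. The share called was 48.7% for hormone and growth factor receptors, 48.5% for nuclear receptors, 42.9% for MAPK feedback and 57.1% for the clock list. Over all genes it was 34.1%. Of 39 hormone and growth factor receptors 8 rose and 11 fell, with Lifr and Fgfr2 higher by 1.04 and 0.92 and Esr1 and Gabbr1 lower by 1.38 and 0.89. Of 33 nuclear receptors 7 rose and 9 fell. Nr1i3, the xenobiotic sensor CAR, fell by 2.35. Esrra, the partner of Ppargc1a at mitochondrial genes, was at 25.6 to 28.8 CPM in controls and 39.6 to 58.4 CPM in fusion livers, a rise of 0.79 ± 0.10 (SE; edgeR adjusted p = 0.000169). In MAPK feedback 7 of 21 genes rose and 2 fell: the MAPK phosphatase gene Dusp9 rose by 2.03 and Errfi1, an inhibitor of EGF receptors, by 1.00. In the clock list 4 of 21 rose and 8 fell, among them the repressor Cry2, lower by 0.65, and Arntl, the activator BMAL1, higher by 0.75.

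The TGF-beta and BMP list had 5 rises and 6 falls among 38 genes, near the share of all genes. Its largest changes were in ligands. Bmp7 was at 1.75, 1.10, 1.04, 1.44 and 1.09 CPM in controls and at 9.93, 6.26, 7.998 and 6.77 CPM in fusion livers, and Bmp4 and Gdf15 rose by 1.53 and 1.35. Inhbe, which encodes the activin E chain made by hepatocytes, was at 6.93 to 22.8 CPM in controls and 1.08 to 3.01 CPM in fusion livers (log2 fold change -3.18 ± 0.33, SE; edgeR adjusted p = 2.64e-05). Notch and YAP genes (4 rises and 3 falls of 26), NRF2 and oxidative stress genes (4 and 5 of 26), STAT and cytokine feedback genes (4 and 4 of 21) and interferon and antigen presentation genes (6 and 11 of 41) held called genes in both directions. The shares called were 26.9%, 34.6%, 38.1% and 41.5% in that order and 39.1% for the p53 targets below. Over all genes the share was 34.1%. Within the interferon list the GTPase gene Iigp1 fell by 2.02, while Isg15 rose by 0.72. In the list of p53 targets, with 6 rises and 3 falls of 23, the stress kinase gene Plk3 rose from 10.5 ± 3.12 CPM (SD, n = 5) to 88.2 ± 29.1 CPM (SD, n = 4), whereas Cdkn1a, the cell-cycle inhibitor p21, fell from 62.0 ± 7.92 CPM (SD, n = 5) to 31.5 ± 6.71 CPM (SD, n = 4). Neither gene overlapped between the groups.

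Of 29 heat shock chaperones 18 rose and 2 fell, with a median of 0.36 (0.22 higher-share, 0.41 lower-share). Their share of all CPM was 0.466% to 0.605% in controls and 0.769% to 0.846% in fusion livers, with no overlap. Hspa8, the constitutive HSC70 chaperone, was at 861, 872, 824, 824 and 767 CPM in controls and at 1961, 1863, 1809 and 1445 CPM in fusion livers (log2 fold change 1.07 ± 0.10, SE; edgeR adjusted p = 1.49e-05). The cytosolic HSP90 gene Hsp90ab1 rose by 0.59. The stress-induced copies Hspa1a and Hspa1b rose by 1.45 and 1.40 but stayed at or below 6.61 CPM in every liver with overlapping groups, and their near-identical sequences make their separate counts uncertain. Of 39 genes of ATF4 and endoplasmic reticulum stress 14 rose and 4 fell, with Vldlr and Gdf15 higher by 2.20 and 1.35 and Atf5 and Trib3 lower by 1.00 and 0.95.

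**Figure D2:**
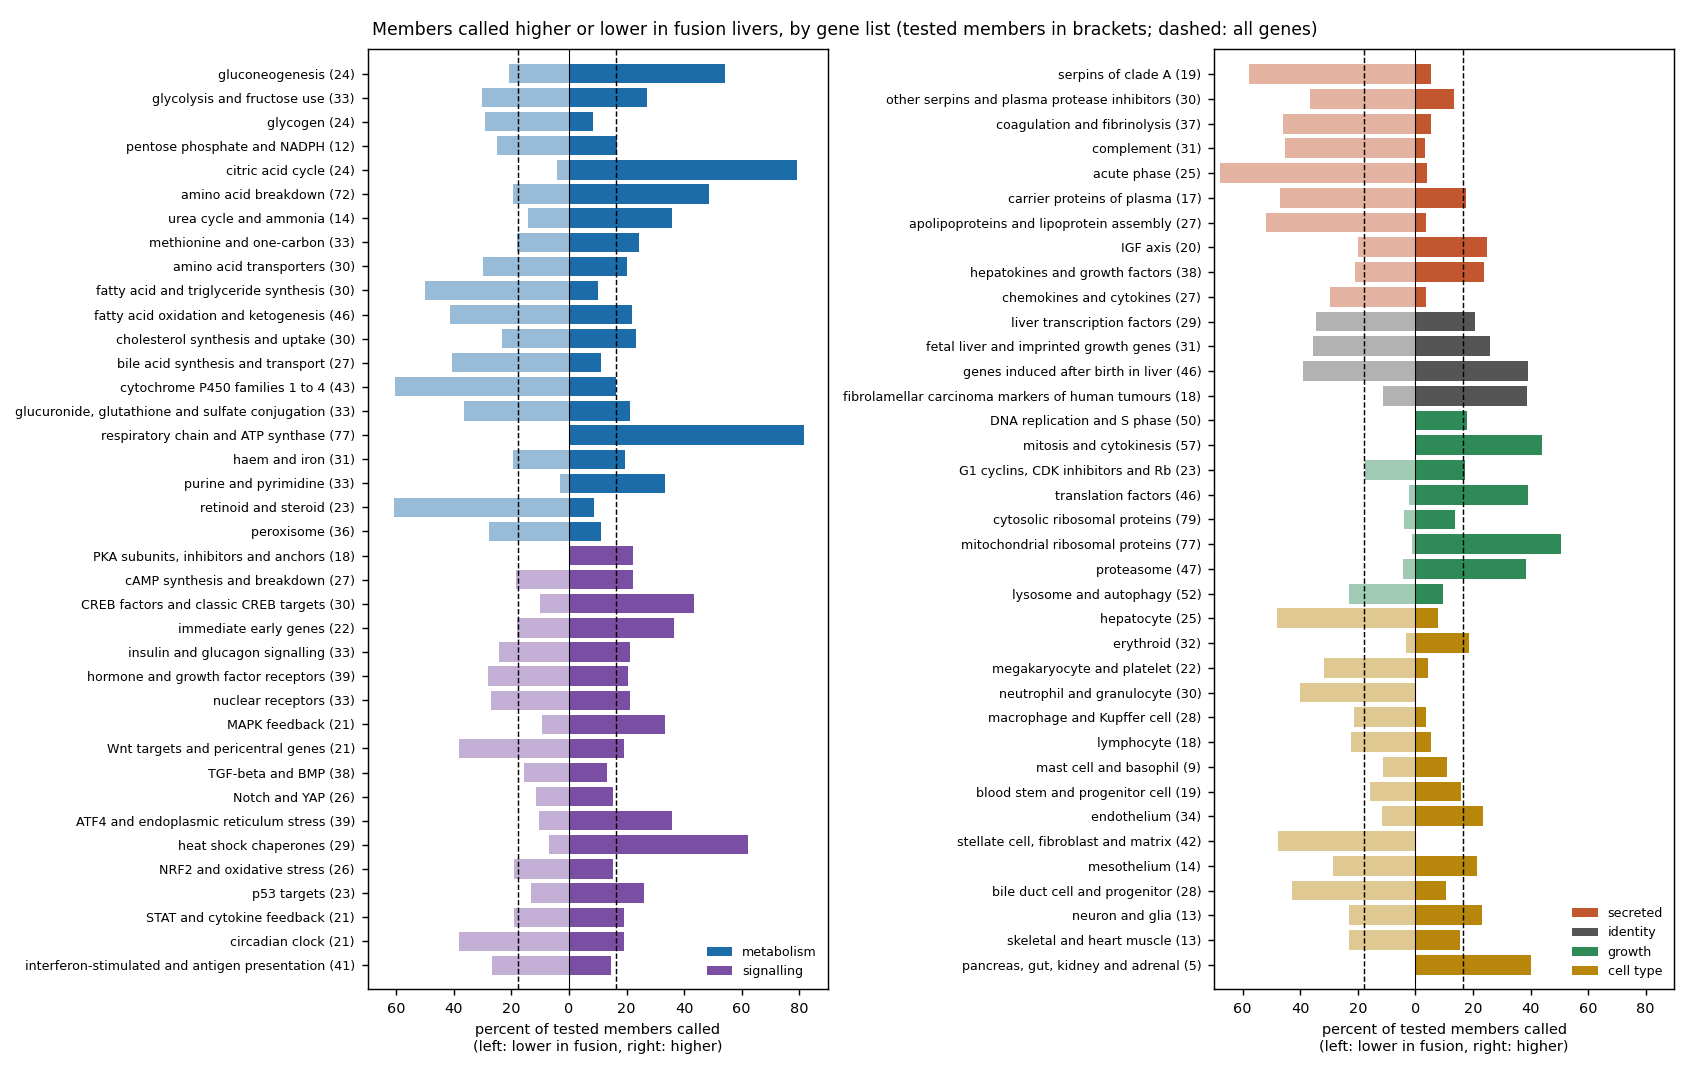
Percent of tested members called higher (right, full colour) and lower (left, pale) in fusion livers for 75 gene lists, with the number tested in brackets and dashed lines at 16.4% and 17.7%, the shares over all genes. The respiratory chain and citric acid cycle stand out to the right, and retinoid, cytochrome P450 and acute phase genes to the left.

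Most tested genes of the citric acid cycle and of the respiratory chain rose. In the citric acid cycle, which burns acetyl-CoA to reduce NAD, 19 of 24 genes rose and 1, Pcx, fell, with a median log2 fold change of 0.61 (0.54 higher-share, 0.64 lower-share). The whole cycle took 0.341% to 0.363% of CPM in controls and 0.461% to 0.533% in fusion livers, with no overlap. Fh1, fumarate hydratase, was at 40.2, 62.7, 71.6, 77.96 and 73.97 CPM in controls and at 286, 219.9, 279 and 164 CPM in fusion livers (log2 fold change 1.87 ± 0.17, SE; edgeR adjusted p = 1.05e-05). The isocitrate dehydrogenase subunit Idh3a rose by 1.54 and Dld, a subunit shared by several dehydrogenase complexes, by 1.35. Pcx, pyruvate carboxylase, fell by 0.57.

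Of 77 genes of the respiratory chain and ATP synthase 63 rose and 0 fell, with a median of 0.48 (0.42 higher-share, 0.43 lower-share). Rises were found in each complex, grouped so after the values were seen: 26 of 37 subunits of complex I, 4 of 4 of complex II, 8 of 9 of complex III, 12 of 12 of complex IV and 13 of 15 of ATP synthase. Without the covariate 26 of the 77 passed, and the groups did not overlap in CPM for 26. Their summed share of CPM also moved with the ribosomal share. It was 2.27% and 2.43% in controls 1 and 2 against 2.94% and 3.46% in fusions 9 and 8, and 1.72% to 1.78% in controls 3 to 5 against 2.20% and 2.69% in fusions 6 and 7. Cox7a1, an isoform of a complex IV subunit best known from muscle, was at 8.32, 9.25, 4.71, 2.97 and 5.14 CPM in controls and at 17.8, 29.2, 47.1 and 26.9 CPM in fusion livers. The widely used isoform Cox7a2 rose by 1.03 and Uqcrb of complex III by 0.95. Of 77 mitochondrial ribosomal proteins 39 rose and 1 fell, with a median of 0.24 (0.26 higher-share, 0.21 lower-share), led by Mrps31, Mrpl3 and Mrps6.

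Of 24 genes of gluconeogenesis, the making of new glucose, 13 rose and 5 fell, with a median of 0.41 (0.39 higher-share, 0.63 lower-share). Pck1, the enzyme that turns oxaloacetate into phosphoenolpyruvate, was at 5.59, 8.56, 57.1, 26.8 and 30.7 CPM in controls. It was at 1482, 1006, 1167 and 540.2 CPM in fusion livers, so that the lowest fusion liver was still far above the highest control (log2 fold change 5.51 ± 0.47, SE; edgeR adjusted p = 5.66e-06). G6pc, which releases free glucose, was at 22.6, 33.8, 66.7, 34.8 and 57.8 CPM in controls and at 459, 226, 136 and 71.0 CPM in fusion livers. Fusion 9 lay just above control 3 (log2 fold change 2.16 ± 0.27, SE; edgeR adjusted p = 0.000106). Slc37a4, which carries glucose 6-phosphate to that enzyme, fell by 1.32 and Gpd1 by 0.90. Of 33 glycolysis and fructose genes 9 rose and 10 fell. Pfkfb1, the liver form of the enzyme that sets fructose 2,6-bisphosphate, fell by 1.83 and Tkfc by 1.29, whereas Ldhb, Gapdh and Hk2 rose by 1.28, 1.05 and 0.95. Gapdh was at 305 to 311 CPM in controls 1 and 2 and 602 to 749 CPM in the other controls, and at 571 to 627 CPM in fusions 9 and 8 against 1666 to 1788 CPM in fusions 7 and 6. Of 24 glycogen genes 2 rose and 7 fell, the falls led by Ppp1r3b, Stbd1 and Ppp1r3c, which bind glycogen. Gys2, glycogen synthase of liver, was at 73.7 to 150.0 CPM in controls and 75.5 to 102.7 CPM in fusion livers (edgeR adjusted p = 0.0801).

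Amino acid breakdown rose in 35 of 72 genes and fell in 14, with a median of 0.23 (0.28 higher-share, 0.32 lower-share), and its share of CPM was 0.760% to 0.805% in controls and 0.977% to 1.19% in fusion livers. Tat, tyrosine aminotransferase, was at 5.82, 7.32, 13.8, 14.8 and 13.5 CPM in controls and at 353, 296, 341 and 174 CPM in fusion livers (log2 fold change 4.75 ± 0.23, SE; edgeR adjusted p = 6.47e-08). Sds, serine dehydratase, rose from 8.19 ± 1.71 CPM (SD, n = 5) to 192 ± 66.8 CPM (SD, n = 4). Got1, the cytosolic aspartate aminotransferase, was at 72.1, 84.9, 79.0, 72.0 and 70.8 CPM in controls and at 1016, 1065, 1423 and 787 CPM in fusion livers. Its controls differed little, its log2 fold change was 3.80 or 3.81 in each set of libraries, and its adjusted p was the smallest of all genes in the fit (edgeR adjusted p = 2.06e-08). Aspg, Csad and Hykk fell by 2.44, 1.04 and 1.04. In the urea cycle and ammonia list 5 of 14 genes rose and 2 fell. Gls2, the liver glutaminase that frees ammonia, rose from 34.2 ± 12.5 CPM (SD, n = 5) to 153 ± 68.2 CPM (SD, n = 4), the ornithine carrier Slc25a15 rose by 1.22, and Cps1, the entry enzyme of the cycle, rose by 0.87. Glul, glutamine synthetase of the hepatocytes around the central vein, was at 412 to 479 CPM in controls and 279 to 395 CPM in fusion livers, a log2 fold change of -0.51 with an SE of 0.11 (edgeR adjusted p = 0.00392). Slc7a2, the carrier of cationic amino acids, rose by 1.49 and the system A and N carriers Slc38a4 and Slc38a3 by 0.88 and 0.95, although the 30 amino acid transporters as a list held 6 rises and 9 falls.

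In the methionine and one-carbon list 8 of 33 genes rose and 6 fell. Mat1a, which makes the methyl donor S-adenosylmethionine, was at 181, 239, 308, 340.4 and 363 CPM in controls and at 1586, 1372, 1406 and 820.0 CPM in fusion livers (log2 fold change 2.19 ± 0.16, SE; edgeR adjusted p = 1.8e-06). Nnmt, which spends that donor to methylate nicotinamide, was at 0.291 to 0.966 CPM in controls and 26.7 to 84.1 CPM in fusion livers, a log2 fold change of 6.43 with an SE of 0.27 (edgeR adjusted p = 2.77e-08). Gamt and Bhmt, which also use methyl groups, fell by 1.35 and 0.72, and Cth, which makes cysteine, rose by 1.71. In the peroxisome list, with 4 rises and 10 falls among 36 genes, Agxt, which removes glyoxylate, rose by 2.05 and Phyh, which breaks down phytanic acid, by 1.55.

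Of 30 genes of fatty acid and triglyceride synthesis 15 fell and 3 rose, with a median of -0.38 (-0.60 higher-share, -0.34 lower-share). Pnpla3, the lipid droplet protein, was at 14.9, 11.05, 9.89, 16.8 and 11.5 CPM in controls and at 1.94, 2.65, 1.31 and 2.42 CPM in fusion livers. Acacb, which makes the malonyl-CoA that restrains fat burning, fell by 2.42, and Mlxipl, the carbohydrate-responsive factor ChREBP, from 38.5 ± 7.65 CPM (SD, n = 5) to 14.9 ± 3.25 CPM (SD, n = 4). Fasn, fatty acid synthase, fell by 0.90 ± 0.16 (SE; edgeR adjusted p = 0.00145), with falls of 1.36 in the higher-share and 0.52 in the lower-share libraries. In fatty acid oxidation and ketogenesis 10 of 46 genes rose and 19 fell. Without the covariate 0 rose and 10 fell, and the groups did not overlap for 2 higher and 11 lower genes. The rises included the electron carriers Etfdh and Etfa, at 0.72 and 0.63, and the falls were led by Vnn1, Cyp4a10 and Cyp4a14, known targets of PPAR-alpha, at -3.34, -3.21 and -2.06. Cpt1a, the gate of fatty acids into mitochondria, was at 45.1 to 94.6 CPM in controls and 45.4 to 58.6 CPM in fusion livers (edgeR adjusted p = 0.19). Cholesterol synthesis and uptake held 7 rises and 7 falls among 30 genes.

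Among the enzymes that handle drugs, bile acids and steroids, most calls were falls. Of 43 cytochrome P450 genes of families 1 to 4, 26 fell and 7 rose, with a median of -0.64 (-0.55 higher-share, -0.76 lower-share). Cyp2e1, an enzyme of ethanol oxidation, was at 135, 152, 219.8, 190.1 and 245 CPM in controls. It was at 1.56, 5.23 and 4.00 CPM in fusions 6 to 8 and at 45.3 CPM in fusion 9 (log2 fold change -4.23 ± 0.77, SE; edgeR adjusted p = 0.00139), against -5.88 when fusion 9 was left out. In the Cyp2c subfamily, grouped after the values were seen, 6 of 7 genes fell and 0 rose, and in Cyp2d 3 of 4 fell. Cyp2c70, which makes the muricholic acids of mice, was at 202 to 261 CPM in controls, at 4.65 to 10.6 CPM in fusions 6 to 8 and at 134 CPM in fusion 9. Others rose: Cyp4f39, Cyp3a44 and Cyp2a5 by 3.12, 2.88 and 2.21. Reads shared by genes of one subfamily make single members uncertain.

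Of 27 genes of bile acid synthesis and transport 11 fell and 3 rose, with a median of -0.36, although it was -0.07 in the higher-share and -0.64 in the lower-share libraries. Cyp7a1, the rate-limiting enzyme of bile acid synthesis, was at 22.9, 40.3, 28.1, 30.1 and 27.4 CPM in controls and at 3.94, 2.53, 4.38 and 14.0 CPM in fusion livers (log2 fold change -2.37 ± 0.33, SE; edgeR adjusted p = 0.000238). Slco1b2, an uptake carrier of bile acids, fell by 2.97. Abcg5 and Abcg8, the paired transporter that exports sterols into bile, rose together by 2.60 and 2.13. In the retinoid and steroid list 14 of 23 genes fell and 2 rose (median -0.62, with -0.33 higher-share and -0.75 lower-share). Akr1c6 was among the falls, by 3.24, and Hsd3b3 changed by 0.99. Conjugating enzymes held 7 rises and 12 falls among 33 genes: Ugt1a1, the enzyme that conjugates bilirubin, fell by 2.56 with overlapping groups, and Ugt2b1 and Gstt3 rose by 1.78 and 1.47.

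**Figure D3:**
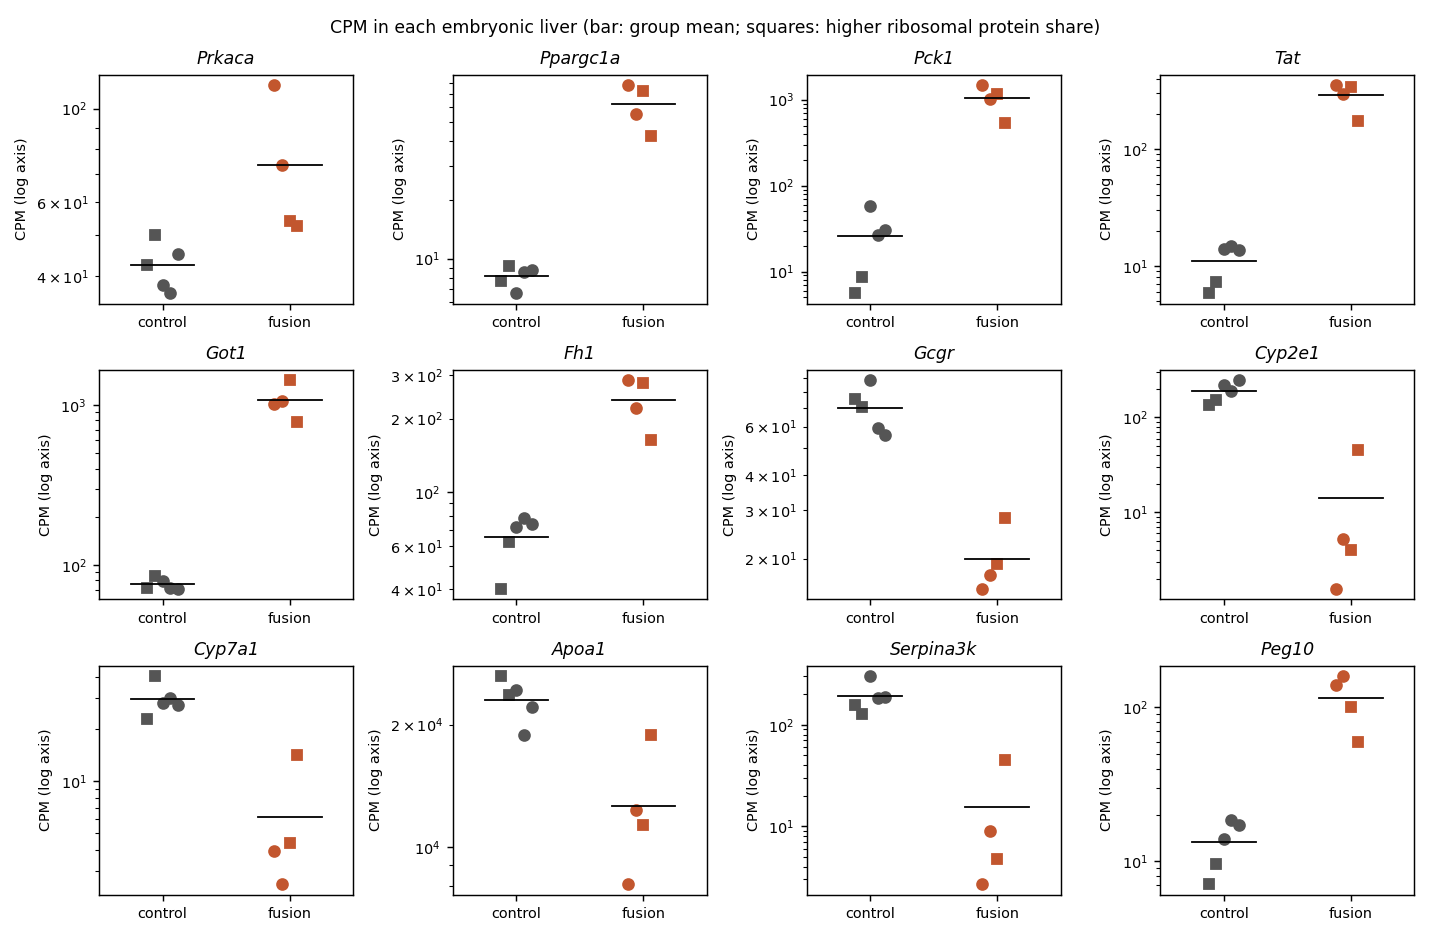
CPM (log axis) of 12 genes in each liver, with grey points for the 5 controls, orange points for the 4 fusion livers, squares for libraries with the higher ribosomal protein share and bars for group means. For Cyp2e1, Cyp7a1, Serpina3k and Apoa1 the fusion liver nearest to the controls is fusion 9, and for Prkaca fusion 6 is highest.

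Over 7 lists of plasma proteins together, 82 of 162 tested genes fell and 10 rose, with a median of -0.35 (-0.26 higher-share, -0.42 lower-share). Their summed share of CPM, to which Alb and Afp belong, overlapped between the groups, at 23.3% to 28.8% in controls and 24.6% to 27.3% in fusion livers. Among the clade A serpins, protease inhibitors and hormone carriers made by hepatocytes, 11 of 19 fell and 1 rose, with a median of -0.73. Serpina3k was at 155, 127, 302, 184 and 187 CPM in controls and at 2.67, 8.90, 4.77 and 45.4 CPM in fusion livers (log2 fold change -3.98 ± 0.67, SE; edgeR adjusted p = 0.000867). Serpina3m and the pseudogene Serpina4-ps1 fell by 3.95 and 3.92, and the split of reads among these similar genes is uncertain. The 1 rise was Serpina6, the carrier of corticosteroids, at 1.02 with overlapping groups.

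Of 25 acute phase genes 17 fell and 1, Hpx, rose, with a median of -0.55 (-0.41 higher-share, -0.86 lower-share). Cp, the copper carrier ceruloplasmin, was at 181, 173, 267, 327 and 276 CPM in controls and at 29.6, 29.5, 19.1 and 81.1 CPM in fusion livers (log2 fold change -2.63 ± 0.37, SE; edgeR adjusted p = 0.000245). Haptoglobin, Hp, fell from 2252 ± 394 CPM (SD, n = 5) to 906 ± 388 CPM (SD, n = 4), while hemopexin, Hpx, which also clears the remains of haemoglobin, rose from 746 ± 118 CPM (SD, n = 5) to 1756 ± 377 CPM (SD, n = 4). Neither overlapped between the groups. In coagulation and fibrinolysis 17 of 37 genes fell and 2 rose (median -0.30). Hrg fell by 2.25, Kng1, the kininogen, by 1.11 and Proz by 0.97, against rises of 0.49 in Pros1 and 0.44 in Tfpi. The groups overlapped for both rises, and neither passed without the covariate. In complement 14 of 31 fell and 1 rose (median -0.30), with C9, C4b and Mbl2 lower by 1.77, 1.37 and 1.34. Of 27 apolipoproteins and lipoprotein assembly genes 14 fell and 1, Apoa4, rose (median -0.41). Apoa4, an apolipoprotein of fasting and fat absorption, was at 6.10 to 12.7 CPM in controls and 17.7 to 59.4 CPM in fusion livers. Of 17 carrier proteins 8 fell and 3 rose, the falls including Gc, the carrier of vitamin D, by 1.21.

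In the IGF axis 5 of 20 genes rose and 4 fell. Igf1 was at 24.7, 26.8, 16.4, 20.4 and 19.9 CPM in controls and at 35.1, 36.6, 47.5 and 28.6 CPM in fusion livers, with no overlap (log2 fold change 0.77 ± 0.14, SE; edgeR adjusted p = 0.0015). Igfbp1, the fasting-induced binding protein, rose by 0.73 ± 0.14 (SE; edgeR adjusted p = 0.00217) and Pappa, a protease of binding proteins, by 3.67 from at most 0.377 CPM. Igfbp6 and Igfbp2 fell by 1.04 and 0.89. Among hepatokines and growth factors 9 of 38 rose and 8 fell: Fst and Nrg4 rose by 1.17 and 0.89, and Fetub and Tsku fell by 1.32 and 1.24. Of 27 chemokines and cytokines 8 fell and 1 rose (33.3% called, against 34.1% of all genes). Spp1, Ccl9 and Cx3cl1 were lower by 2.02, 1.35 and 0.83 and Il33 higher by 0.81. Without the covariate 2 fell and 0 rose, and the groups overlapped for Il33.

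Of 29 liver transcription factors 6 rose and 10 fell, with a median of -0.17. The median was 0.08 in the higher-share libraries, with 7 rises and 1 fall, and -0.26 in the lower-share libraries, with 4 and 8. Without the covariate 3 rose and 4 fell, and with sex added 7 rose and 6 fell. Foxa2 and Cebpa fell by 0.81 and 0.63, and Nr1h4, the bile acid receptor FXR, by 0.65, whereas Zfp36l1 and Klf15 rose by 1.03 and 0.82. Hnf4a, the central factor of hepatocytes, was at 79.8, 84.9, 151.6, 138.9 and 154.5 CPM in controls and at 198, 155.8, 114.5 and 113.0 CPM in fusion livers. The groups overlapped, the level was lower in the higher-share libraries of both groups, and the test gave a log2 fold change of 0.25 with an SE of 0.10 (edgeR adjusted p = 0.0606). Of 31 fetal and imprinted growth genes 8 rose and 11 fell. Peg10, expressed from the paternal copy, was at 7.10, 9.66, 14.1, 18.7 and 17.2 CPM in controls and at 140.4, 159.9, 100.2 and 59.4 CPM in fusion livers (log2 fold change 3.12 ± 0.19, SE; edgeR adjusted p = 4.31e-07). Zim1 and Peg3, imprinted genes next to each other, rose by 1.85 and 1.44, and the imprinted RNA Meg3 fell by 0.97. Of 46 genes known to rise in liver after birth 18 rose and 18 fell, with a median of -0.28 that turned to 0.04 in the higher-share libraries (-0.25 lower-share). Pck1 and Tat rose, and Cyp2e1 and Akr1c6 fell. Of 18 tested markers of human fibrolamellar carcinoma 7 rose and 2 fell, with a median of 0.29 (0.29 higher-share, 0.52 lower-share). Oat, Muc13 and Tff3 rose by 1.19, 1.82 and 1.12, and Krt7 and Erbb2 fell by 0.97 and 0.59.

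In the list of mitosis and cytokinesis 25 of 57 genes rose and 0 fell, with a median of 0.24 (0.13 higher-share, 0.31 lower-share), and 9 passed without the covariate. Kif20b, a motor of cytokinesis, was at 5.30, 7.46, 4.90, 7.63 and 7.10 CPM in controls and at 11.5, 11.7, 10.0 and 10.9 CPM in fusion livers, without overlap. Ect2 and Cenpi rose by 0.76 and 0.71. Mki67, a marker of cycling cells, was at 454 to 622 CPM in controls and 591 to 664 CPM in fusion livers (log2 fold change 0.09 ± 0.11, SE; edgeR adjusted p = 0.531). Of 50 genes of DNA replication 9 rose (18%, against 16.4% of all genes) and 0 fell. Their median was 0.12, with 0.01 in the higher-share and 0.21 in the lower-share libraries. In the higher-share libraries 6 rose and 4 fell, and in the lower-share libraries 5 rose and 0 fell. Without the covariate 3 rose and 0 fell, and with sex added 6 rose and 2 fell. Among G1 regulators 4 of 23 rose and 4 fell (34.8% called, against 34.1% of all genes). Ccnd1, cyclin D1, was at 26.4 to 35.8 CPM in controls and 26.1 to 31.4 CPM in fusion livers (edgeR adjusted p = 0.326). Translation factors rose in 18 of 46 genes and fell in 1 (median 0.21). Eif4ebp1, which holds back translation, was the fall among the factors, at -0.83. Proteasome genes rose in 18 of 47 and fell in 2 (median 0.15). Purine and pyrimidine genes rose in 11 of 33 and fell in 1 (median 0.18). Without the covariate 5 genes of each of these lists rose, and 1 translation factor fell. In the higher-share libraries 7 proteasome genes rose and 1 fell, and in the lower-share libraries 4 rose and 3 fell. The proteasome share of CPM overlapped, at 0.431% to 0.637% in controls and 0.458% to 0.628% in fusion livers. The 79 cytosolic ribosomal proteins, whose share was the covariate, held 11 rises and 3 falls.

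**Figure D4:**
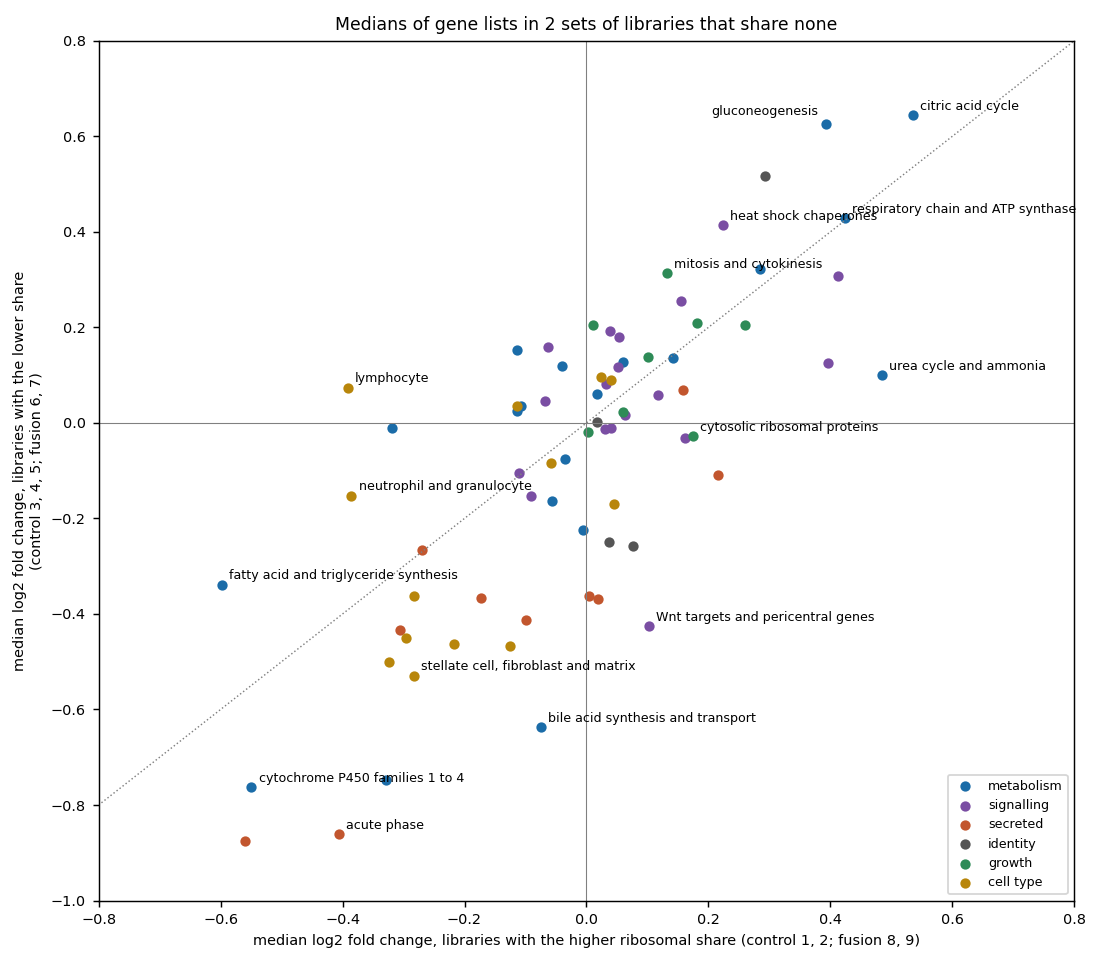
Median log2 fold change of each list with at least 10 tested genes in the 4 libraries with the higher ribosomal share (horizontal axis) and in the 5 with the lower share (vertical axis), coloured by category, with the dotted line at equal values. The citric acid cycle lay at 0.54 and 0.64 and the acute phase list at -0.41 and -0.86, whereas bile acid genes lay at -0.07 and -0.64.

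Markers of other cell types were examined in the same fit. Of 42 genes of stellate cells, fibroblasts and matrix 20 fell and 0 rose, with a median of -0.44 (-0.28 higher-share, -0.53 lower-share). Eln, elastin, was at 54.7, 48.5, 55.5, 67.2 and 61.7 CPM in controls and at 28.6, 31.9, 23.5 and 32.3 CPM in fusion livers (log2 fold change -0.999 ± 0.104, SE; edgeR adjusted p = 2.93e-05). Thy1 and Col6a2 fell by 1.32 and 0.98. Of 28 bile duct and progenitor markers 12 fell and 3 rose, with a median of -0.28 (-0.28 higher-share, -0.36 lower-share). Their summed share of CPM went the other way, at 0.159% to 0.197% in controls and 0.223% to 0.257% in fusion livers, with no overlap. The mean log2(CPM + 1) of the list in fusion 9 was 0.01 above the control mean. Cldn6, Spp1 and Cldn7 fell by 2.36, 2.02 and 1.92, while Anxa13, Prom1 and Tff3 rose by 2.27, 1.68 and 1.12. Krt19, a keratin of bile ducts and mesothelium, was at 6.88 to 7.32 CPM in controls and 2.92 to 4.77 CPM in fusion livers. Sox9, the duct factor, was at 3.73, 3.04, 5.79, 5.48 and 3.79 CPM in controls and at 0.814, 1.02, 2.00 and 3.73 CPM in fusion livers, with fusion 9 inside the control range (log2 fold change -1.47 ± 0.36, SE; edgeR adjusted p = 0.00751).

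Among blood cells, erythroid markers held 6 rises and 1 fall among 32 genes with a median of -0.06, and their summed share was 0.779% to 1.18% of CPM in controls and 0.925% to 1.13% in fusion livers. Neutrophil and granulocyte markers fell in 12 of 30 genes and rose in 0 (median -0.18), and 2 fell without the covariate. Hp, the largest fall among them, is also a hepatocyte product. Megakaryocyte markers fell in 7 of 22 and rose in 1, macrophage and Kupffer cell markers fell in 6 of 28 and rose in 1, and lymphocyte markers fell in 4 of 18 and rose in 1. Endothelial markers rose in 8 of 34 and fell in 4. Their groups did not overlap for 1 higher and 2 lower genes, and over all genes tested 16.9% did not overlap. The share called was 21.9% for erythroid, 40% for neutrophil, 36.4% for megakaryocyte, 25% for macrophage, 27.8% for lymphocyte and 35.3% for endothelial markers. Over all genes it was 34.1%. Without the covariate 1 megakaryocyte and 1 lymphocyte marker fell, 1 endothelial marker rose and 1 fell, and no erythroid or macrophage marker passed. Among endothelial genes Sox7, Sox18 and Kdr rose by 0.99, 0.63 and 0.51, and Plvap and Stab1 fell by 0.58 and 0.49. Of 25 hepatocyte markers 12 fell and 2 rose, with a median of -0.31 (-0.13 higher-share, -0.47 lower-share). In the higher-share libraries 4 fell and 3 rose, and without the covariate 4 fell and 2 rose. Their summed share was 13.1% to 18.2% in controls and 10.7% to 15.9% in fusion livers. In controls it was 13.1% and 13.5% in the higher-share libraries and 17.5% to 18.2% in the others, and in fusions 6 to 9 it was 15.9%, 13.6%, 10.7% and 13.7%. In the neuron and glia list 3 of 13 genes rose and 3 fell. Of its 41 genes 14 were among the deposited counts. Its members, like those of the other lists, were chosen with earlier results of these data known. Elfn1 and Ttyh1 were at no more than 0.392 and 0.895 CPM in controls and at 14.2 to 26.3 and 38.1 to 69.9 CPM in fusion livers, and the third rise was Mbp, by 0.51. With sex as an added covariate the 20 falls of stellate, fibroblast and matrix genes (median -0.44) were 16 (-0.30) and the 12 of bile duct and progenitor markers (-0.28) were 10 (-0.19). With the erythroid level added they were 20 (-0.42) and 10 (-0.22), and without any covariate 9 (-0.44) and 7 (-0.22).

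Over families named by symbol, the 101 collagens, laminins, integrins and related genes held 35 falls and 9 rises, and Itga7 and Loxl2 went the other way, higher by 2.95 and 1.38. The 58 interleukin, interferon and TNF receptors held 18 falls and 2 rises, and the 60 homeobox and forkhead factors 18 falls and 4 rises. Solute carriers held 59 falls and 34 rises among 225 genes. Slc25a25, a mitochondrial carrier of adenine nucleotides, was at 15.0 to 43.9 CPM in controls and 93.4 to 203.6 CPM in fusion livers, and Slc25a22, a glutamate carrier, rose by 1.54. Among 124 G protein-coupled receptors and regulators 22 rose and 20 fell, with Adra2a, an inhibitory adrenergic receptor, higher by 1.98 and Rgs16 lower by 2.49. Splicing factors and RNA helicases rose in 34 of 161 genes and fell in 12. Ddx3x, a helicase gene on the X chromosome, was among the rises, and 4 X-linked genes with a partner on the Y chromosome, Ddx3x, Kdm6a, Eif2s3x and Usp9x, had log2 fold changes of 0.71, 0.92, 0.76 and 0.87. With sex as an added covariate these were 0.61, 0.59, 0.46 and 0.61, the last with an edgeR adjusted p of 0.061. The 310 zinc finger genes named Zfp, with 18 rises and 34 falls, and the 141 chromatin regulators, with 17 and 22, had 16.8% and 27.7% of their members called. The share called was 43.6% for the collagen family, 34.5% for interleukin, interferon and TNF receptors and 36.7% for homeobox and forkhead factors. It was 41.3% for solute carriers, 33.9% for G protein-coupled receptors and regulators and 28.6% for splicing factors and helicases. Over all genes it was 34.1%.

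**Figure D5:**
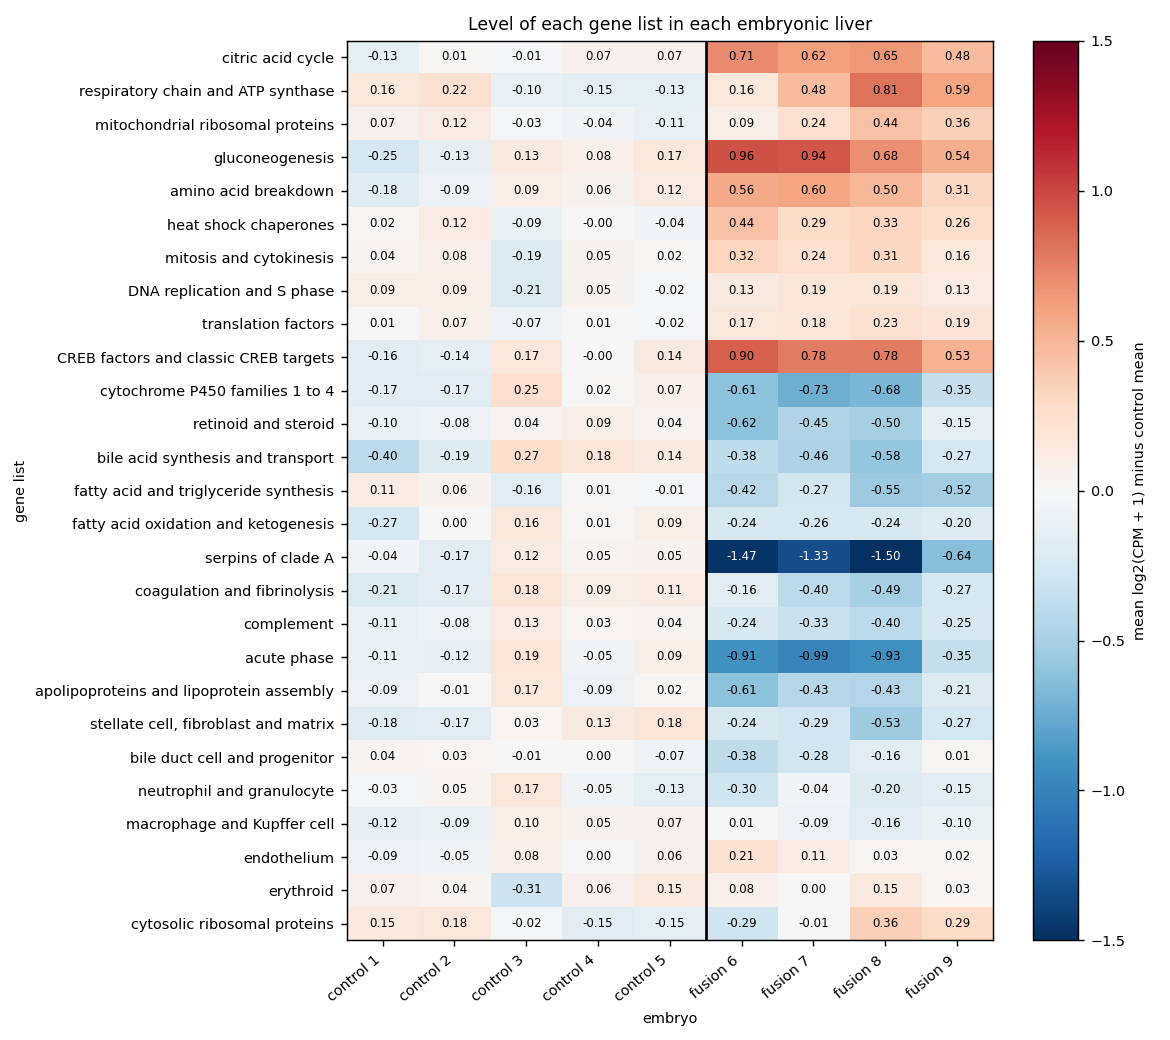
Mean log2(CPM + 1) of 27 gene lists in each liver, less the mean over the 5 controls, with red for higher and blue for lower. The 4 fusion columns share their colours in the citric acid cycle (0.48 to 0.71) and the clade A serpins (-1.496 to -0.64), and fusion 9 is the palest of them in both.

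The 4 fusion livers were not equally far from the controls. Among the 636 genes called at 2-fold or more, fusion 9 was the fusion liver nearest to the control mean for 406 genes, and fusions 6, 7 and 8 for 79, 102 and 49. For the rises among them the median distance from the control mean, on the log2(CPM + 1) scale, was 1.39, 1.22, 1.40 and 0.83 in fusions 6 to 9. For the falls it was 1.06, 0.97, 1.08 and 0.67. These genes were chosen on the same libraries, so the values describe the embryos and are no test. Fusion 9 had the lowest Prkaca of the fusion livers, at 52.5 CPM, close to fusion 8 at 54.0, and was the male among them. Clade A serpins stood at -1.496 to -1.33 from the control mean in fusions 6 to 8 and at -0.64 in fusion 9, and acute phase genes at -0.99 to -0.91 and at -0.35. The citric acid cycle and gluconeogenesis were also nearest to the controls in fusion 9, whereas mitochondrial ribosomal proteins and the respiratory chain were nearest in fusion 6. These levels were not adjusted for the ribosomal share, which was lowest in fusion 6, at 6.18%. For the respiratory chain control 2, at 0.22 from the control mean, lay above fusion 6, at 0.16.

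Promoter windows were found for 10598 of the 13316 tested genes. The full element lay in a window of 3.47% of all tested genes with one, 3.72% of those called higher and 2.6% of those called lower. The core lay in 34.3%, 40.4% and 28.5%. Among rises of at least 2-fold it lay in 32.1% and among such falls in 17.2%, and over all 27025 genes with a window, tested or not, in 23%. These shares describe letters in windows of 300 bases and were not tested.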

How the data were processed

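Poly-A RNA-seq libraries of 9 embryonic livers were compared. The authors deposited raw read counts per gene for 13549 genes, and per the submitters' processing notes STAR 2.5.1b, DESeq2 and the build mm10 were used. The counting tool, annotation and use of strand are not given in the sources used here, so overlapping and near-identical genes are uncertain. A further 9 columns of normalized values were not used. Members and lists were chosen with earlier results of these data known, and subgroups of lists after the values were seen.

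Groups came from the labels. Genes passing filterByExpr (13316) were fitted in edgeR 4.0.16 (R 4.3.3; TMM factors, quasi-likelihood test, two-sided) with genotype and the centred share of counts in cytosolic ribosomal protein genes. Adjusted p-values are Benjamini-Hochberg over all genes tested, with calls under 0.05, and the SE is the log2 fold change over the root of F. CPM are TMM-scaled. Totals of 7660736 to 45591301 counts set the counting precision. Replicates differed beyond counting noise, with a chi-square per degree of freedom of at least 12.5. The script was tested on simulated data.

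Named genes were a fixed set (Prkaca, Dnajb1 and regulators), up to 3 called rises and 3 called falls of largest size per list with a mean of at least 1 CPM, and the 10 largest gains and losses in CPM. Dusp1, Xist (read for sex at 10 CPM), Dapl1, Lmod3, Mtnr1a, Pcdh20 and Mettl7b were chosen after their values were seen. Gene positions are from GENCODE M21, promoters from RefSeq. Alternatives were other covariates, subsets of libraries, scalings, filters, DESeq2 1.42.0, limma-voom 3.58.1 and leaving out each embryo. Results on a few genes are not reported here.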

Additional observations from a re-analysis of the deposited data

Results flagged for a closer look

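Of 428 groups of 4 or 5 CPM values tested, for each named gene and genotype, 38 held a library far from the rest by Dixon's test, a rule that chance meets in about 1 of 20 groups. Among them fusion 9 was nearer to the controls than the other fusion livers for A2m at 1753 CPM, Akr1c6 at 14.6, Cp at 81.1, Cyp2c70 at 134, Cyp2e1 at 45.3, Cyp7a1 at 14.0, Elfn1 at 14.2, Glul at 395, Hrg at 77.3, Nr1i3 at 5.18, Serpina3k at 45.4, Serpina3m at 11.1, Serpina4-ps1 at 18.4, Slco1b2 at 27.2 and Vnn1 at 1.93 CPM.

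Fusion 8 stood apart with Adra2a at 12.3, Afp at 94283, Anxa13 at 5.84, Gdf15 at 12.9, Gpd1 at 43.9 and Igfbp1 at 2654 CPM. Other fusion livers stood apart with Apoa4 at 59.4 and Usp9x at 32.9 CPM in fusion 7 and Serpina6 at 113 CPM in fusion 6. Control 3 stood apart with Aspg at 21.99, Dapl1 at 0.0471, Kng1 at 5195, Mki67 at 454, Mtnr1a at 0.0942 and Serpina3m at 82.7 CPM. Control 5 did so with Cyp4f39 at 0.827, Elfn1 at 0.392, Hspa1a at 1.00 and Zim1 at 1.52 CPM, control 1 with Cyp2a5 at 126 and Pcdh20 at 0.116 CPM, and control 2 with Loxl2 at 29.3 and Mettl7b at 1.66 CPM.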

How the results depend on the processing

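No paired analysis was possible because the embryo libraries carry the numbers 1 to 9 and the groups share none of them. The 4539 genes called became 1704 (797 higher, 907 lower) without the covariate, 2589 (1322 higher, 1267 lower) in the higher-share libraries alone and 2950 (1434 higher, 1516 lower) in the lower-share libraries alone, the latter fits having fewer samples. Changes of at least 2-fold numbered 636, and 252 once genes under 10 CPM on average were dropped, which left fewer to test. Leaving out each embryo in turn gave 3286 to 4247 genes differing between fusion and control embryonic livers, 1601 to 2136 genes higher in fusion livers, 1615 to 2165 genes lower in fusion livers and 567 to 797 genes differing by at least 2-fold. Of 207 called genes named in the text, 137 kept their call under each of the 22 settings in which they were tested; 39 lost it without the covariate, 50 in the higher-share libraries, 19 in the lower-share libraries and 17 without fusion 6. Among called genes the direction turned for 2, in the higher-share libraries: Irs2 at -0.14 and Pde8a at -0.25. Genes not called turned too. Alb was at 0.0357 with the ribosomal split as covariate, 0.0186 in the higher-share libraries, 0.0586 in the lower-share libraries and -0.083 to 0.00235 with an embryo left out. In the higher-share libraries Ccnd1 was at 0.0212, Cpt1a at 0.28, Gys2 at 0.0691 and Mki67 at -0.0010. Nr4a1 was at -0.0835 in the lower-share libraries. The cause was not tested. Of 32 lists with a median of at least 0.2 in size, 5 changed sign under a setting. In the higher-share libraries the medians were 0.10 for Wnt targets and pericentral genes (-0.29 in the fit reported), 0.0040 for other serpins and plasma protease inhibitors (-0.21) and 0.04 for genes induced after birth (-0.28). Over genes of at least 10 CPM they were 0.15 for bile duct markers (-0.28) and 3.61 for the neuron and glia list (-0.37), with fewer genes tested.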

Other observations

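Of the 11 genes that rose by at least 16-fold, 5 were not described above and were picked here after their values were seen. Pcdh20, a protocadherin gene, was at 0.116, 0.414, 0.377, 0.454 and 0.435 CPM in controls and at 17.3, 10.6, 19.1 and 8.43 CPM in fusion livers. Mettl7b, a gene of a methyltransferase-like protein, was at 0.305 to 1.66 CPM in controls and 14.2 to 29.8 CPM in fusion livers. Mtnr1a, a melatonin receptor gene, was at 0 in 4 controls and 0.0942 CPM in control 3, against 1.20 to 2.19 CPM in fusion livers. Dapl1 was likewise at 0 in 4 controls and at 2.07 to 3.91 CPM in fusion livers, and Lmod3, a leiomodin gene of muscle, at 0 to 0.188 and 1.59 to 3.31 CPM. None of the 5 genes overlapped between the groups.

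Long non-coding RNAs held 7 rises and 92 falls among 361 tested genes, against 2167 and 2222 among 12811 protein-coding genes, by RefSeq's gene types. Among the 4439 genes of lowest mean CPM 8% rose and 17.2% fell, and among the 4439 of highest mean CPM 22.7% rose and 18.9% fell. How far abundance bears on the split among non-coding RNAs was not tested.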
